A study of Mus musculus with 6 samples.

Results

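In the bone marrow of mice, 15 genes lay under 0.5 FPKM in every wild-type library and at 1 FPKM or more in every Cbx2-/- library. FPKM is the number of fragments of a transcript scaled to its length and to all mapped fragments. They include genes of lipid droplets and fatty acid metabolism (Plin4, Acacb), an inhibitor of lipoprotein lipase (Apoc3), membrane carriers (Slc7a10, Mfsd6l) and a vascular adhesion molecule (Madcam1). The table holds 22838 genes, of which 19777 had names that the rule kept, since unnamed gene models, small RNAs and clone names were left out. The 15 genes are 0.0758% of these 19777. The mirror rule, at 1 FPKM or more in every wild-type library and under 0.5 FPKM in every Cbx2-/- library, found 33 genes, which is 0.167%. The 15 genes were chosen by their measured FPKM values in these same 6 libraries, so their differences between the genotypes are a description and carry no test. The rule also found 2 clone-named genes, 2610528A11Rik and C920006O11Rik, which were left out by name.

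RNA came from the tibial and femoral marrow of 3 Cbx2-/- mice and 3 wild-type (WT) mice, all 3 weeks old and on a 129/C57BL/6 background, per the labels. Group mean body weight was 4.0 g for Cbx2-/- mice and 12.3 g for WT mice, so genotype and body size cannot be told apart. The labels do not describe the Cbx2 allele or give the sex of the animals. Replicates are separate animals by the protocol's count, and every spread below is over 3 libraries.

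Cbx2 encodes a chromodomain subunit of Polycomb repressive complex 1. This complex binds chromatin that Polycomb repressive complex 2 has methylated on histone H3 and keeps genes silent, above all Hox genes and other regulators of development. Bone marrow holds blood cell precursors together with vessels, stromal cells, bone-forming cells and fat cells, and marrow fat cells store triglyceride in lipid droplets.

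The marrow genes S100a8 and Mpo, of neutrophils and their precursors, were at 17960 to 30227 FPKM and 550.0 to 1077 FPKM in Cbx2-/- libraries, against 13131 to 14739 FPKM and 418 to 482 FPKM in WT libraries. Each library had 16140 to 16574 genes above 0 and a summed FPKM of 599601 to 741192. Read totals per library were not found in the labels or the table, so the reads behind 1 FPKM are unknown. Cbx2 itself was at 2.11, 1.87 and 1.88 FPKM in Cbx2-/- libraries and 2.90, 3.83 and 2.75 FPKM in WT libraries. Its difference of -0.49 ± 0.15 (log2(FPKM + 1), SE) had a limma adjusted p of 0.0558, and the ranges did not overlap. The adjusted p was 0.0467 without Cbx2-/- replicate 3 and 0.0976 to 0.194 in the other fits that left out 1 library. Replicate 1 of each genotype had Y-linked transcripts and next to no Xist, and the other 4 libraries had the reverse. Cbx2-/- replicates 1 and 2 held skeletal muscle transcripts (Acta1, the muscle actin, at 79.1 and 133 FPKM) that replicate 3 did not (1.89 FPKM). The WT libraries had 0.804 to 1.48 FPKM of Acta1.

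The 15 genes were low even where they were expressed. Their mean in Cbx2-/- marrow ran from 1.13 to 6.88 FPKM with a median of 2.16 FPKM, and 10 of them averaged under 3 FPKM. Their means in WT marrow were at most 0.431 FPKM. "Silent" here stands for under 0.5 FPKM and not for no transcript, since only 5 WT values, in 3 genes, were listed at 0. Of the 15 genes, 14 had a WT mean above 0, and their ratio of means was 3.38 to 70.0 with a median of 6.72.

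**Figure D1:**
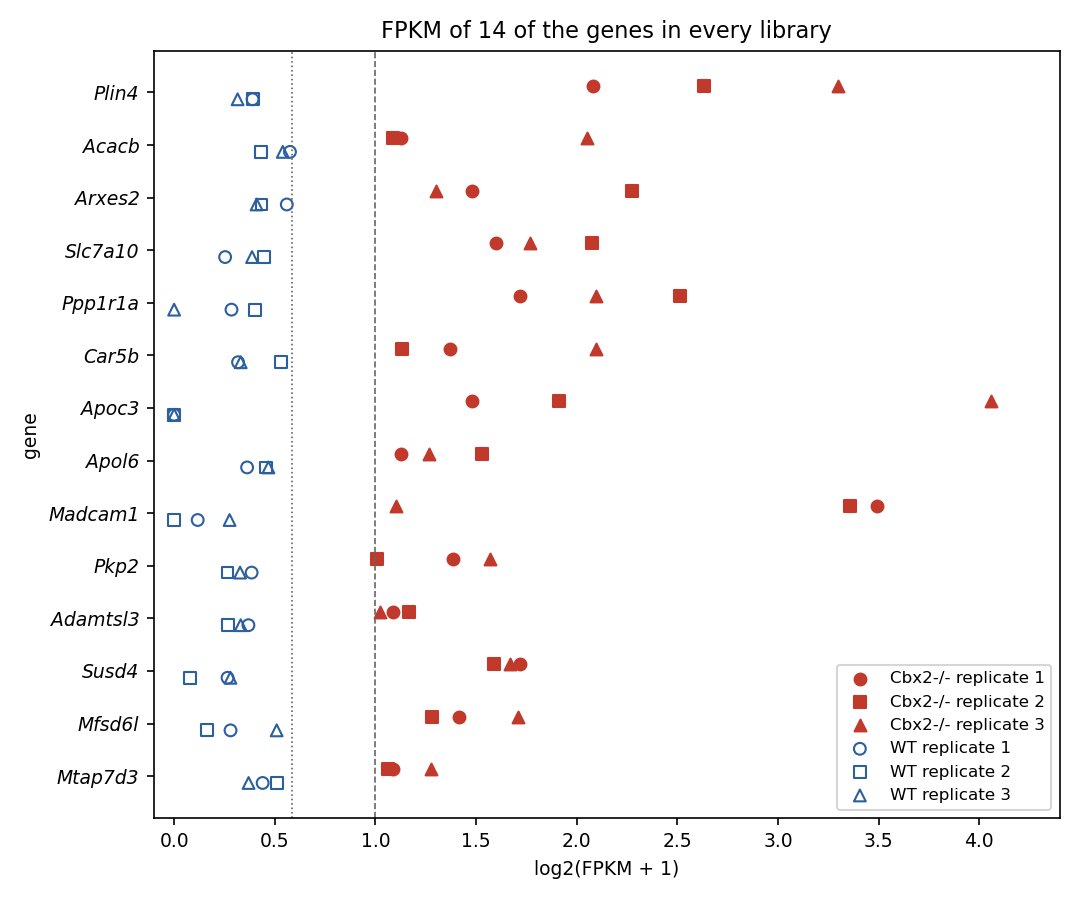
FPKM of 14 of the genes on the log2(FPKM + 1) scale (horizontal axis) in the 3 Cbx2-/- libraries (filled) and the 3 WT libraries (open), with marker shape giving the replicate. The dotted and dashed lines mark the thresholds of 0.5 and 1 FPKM that chose the genes, and Apoc3 and Madcam1 show the widest spread between Cbx2-/- libraries.

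Plin4 encodes perilipin 4, a coat protein of lipid droplets that is abundant in white fat cells (chromosome 17, 56100591 to 56109803, minus strand, GRCm38). It was at 3.23, 5.19 and 8.83 FPKM in Cbx2-/- libraries and 0.310, 0.313 and 0.244 FPKM in WT libraries. The lowest Cbx2-/- library was 10.3 times the highest WT library, and the means of 5.75 ± 2.84 and 0.289 ± 0.0389 FPKM (SD, n = 3 each) gave a ratio of 19.9. In bulk marrow more cells of a type and more RNA per cell cannot be told apart. The deposited locus of Plin4 runs 20960 bases past the gene, and Hdgfrp2 overlaps it on the opposite strand with a limma adjusted p of 0.39.

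Acacb encodes acetyl-CoA carboxylase beta, which makes the malonyl-CoA that holds back fatty acid entry into mitochondria (chromosome 5, 114146535 to 114250761, plus strand). It was at 1.18, 1.12 and 3.15 FPKM in Cbx2-/- libraries and 0.490, 0.348 and 0.454 FPKM in WT libraries. Cbx2-/- replicate 3 stood well above the other Cbx2-/- libraries, and the WT values lay close to the 0.5 FPKM limit. The ratio of means was 4.22.

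Arxes2 is a gene of the X chromosome that was described in mouse fat cell differentiation (135993824 to 135995355, plus strand). It had 1.79, 3.84 and 1.46 FPKM in Cbx2-/- libraries and 0.474, 0.352 and 0.329 FPKM in WT libraries, a ratio of 6.14. Its near-identical neighbour Arxes1, 38012 bases away, had 0.282, 1.20 and 0.313 FPKM in Cbx2-/- libraries and 0.227, 0.0630 and 0.0444 FPKM in WT libraries. Both genes were highest in Cbx2-/- replicate 2, and reads that fit both copies could have been split between them.

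Slc7a10 encodes a carrier of small neutral amino acids that is known as a surface marker of white fat cells (chromosome 7, 35186385 to 35201114, plus strand). It was at 2.02, 3.21 and 2.41 FPKM in Cbx2-/- libraries and 0.192, 0.362 and 0.308 FPKM in WT libraries. The Cbx2-/- values lay close together, at 2.55 ± 0.604 FPKM against 0.287 ± 0.0866 FPKM in WT marrow (SD, n = 3 each), a ratio of 8.87. The deposited locus of Slc7a10 runs 14231 bases past the gene. The gene Lrp3 overlaps it on the opposite strand and had a limma adjusted p of 0.249. Whether the quantification used strand is not stated, so reads of Plin4 and Slc7a10 and of the genes that overlap them may not have been told apart.

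The promoters of Plin4, Acacb and Slc7a10 are shown because these 3 differ in their base composition. RefSeq (GRCm38.p6) holds 300 bases per start site, 250 before it and 50 from it on, written 5′ to 3′ on the strand of the gene. They lie at chr17:56109733-56110032 (minus strand) for Plin4, chr5:114165268-114165567 (plus strand) for Acacb and chr7:35186135-35186434 (plus strand) for Slc7a10. Capitals mark matches to 5 motifs on either strand. These are the TATA box (TATAAA), the CCAAT box (CCAAT), a C/EBP palindrome (TTGCGCAA), a nuclear receptor repeat unit (AGGTCA) and the E-box (CACGTG); the start site of Acacb in this table lies inside the gene's annotated span.
Plin4: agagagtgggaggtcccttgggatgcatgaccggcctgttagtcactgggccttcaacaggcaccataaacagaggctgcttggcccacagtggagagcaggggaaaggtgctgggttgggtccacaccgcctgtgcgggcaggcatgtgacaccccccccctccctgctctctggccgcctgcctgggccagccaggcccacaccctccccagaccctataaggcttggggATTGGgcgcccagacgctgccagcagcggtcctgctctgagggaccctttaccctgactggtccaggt
Acacb: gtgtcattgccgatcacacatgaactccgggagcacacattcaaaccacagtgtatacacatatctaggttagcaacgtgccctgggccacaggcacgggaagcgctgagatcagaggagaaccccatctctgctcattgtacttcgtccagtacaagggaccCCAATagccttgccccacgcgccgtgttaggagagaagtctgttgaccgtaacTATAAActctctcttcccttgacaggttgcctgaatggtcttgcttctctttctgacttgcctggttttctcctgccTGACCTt
Slc7a10: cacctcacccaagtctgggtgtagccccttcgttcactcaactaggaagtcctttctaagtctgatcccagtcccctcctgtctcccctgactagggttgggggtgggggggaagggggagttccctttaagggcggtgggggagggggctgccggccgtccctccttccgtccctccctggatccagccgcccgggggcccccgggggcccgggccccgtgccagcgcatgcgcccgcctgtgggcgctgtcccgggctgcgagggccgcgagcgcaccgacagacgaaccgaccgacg
Counting from the first transcribed base as 0, the Plin4 window holds CCAAT on the minus strand at -18. The Acacb window holds TATAAA at -34, CCAAT at -87 and AGGTCA on the minus strand at 43. No listed motif stands in the Slc7a10 window, which is 70.7% G and C and has a ratio of observed to expected CpG pairs of 0.641, against 0.509 for Acacb and 0.221 for Plin4.

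Promoters were matched for 10 of the 15 genes, with 11 start sites since Susd4 has a pair. Apoc3, Apol6, Pkp2 and Ppp1r1a are not among them. The median CpG ratio was 0.538 over the 11 windows and 0.384 over all 32851 RefSeq promoters. A ratio above 0.6 occurred in 4 of the 11 windows (36.4%), in Slc7a10, Arxes2, Adamtsl3 and one Susd4 start, and in 35.8% of all promoters. TATAAA stood in 1 of the 11 windows and in 13.6% of all promoters. CCAAT stood in 4 windows (Plin4, Acacb, Car5b and Mtap7d3) and in 37.4% of all promoters. AGGTCA stood in 1 window and in 16.3% of all promoters, while TTGCGCAA and CACGTG stood in 0 of the 11 and in 0.183% and 7.15% of all promoters.

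**Figure D2:**
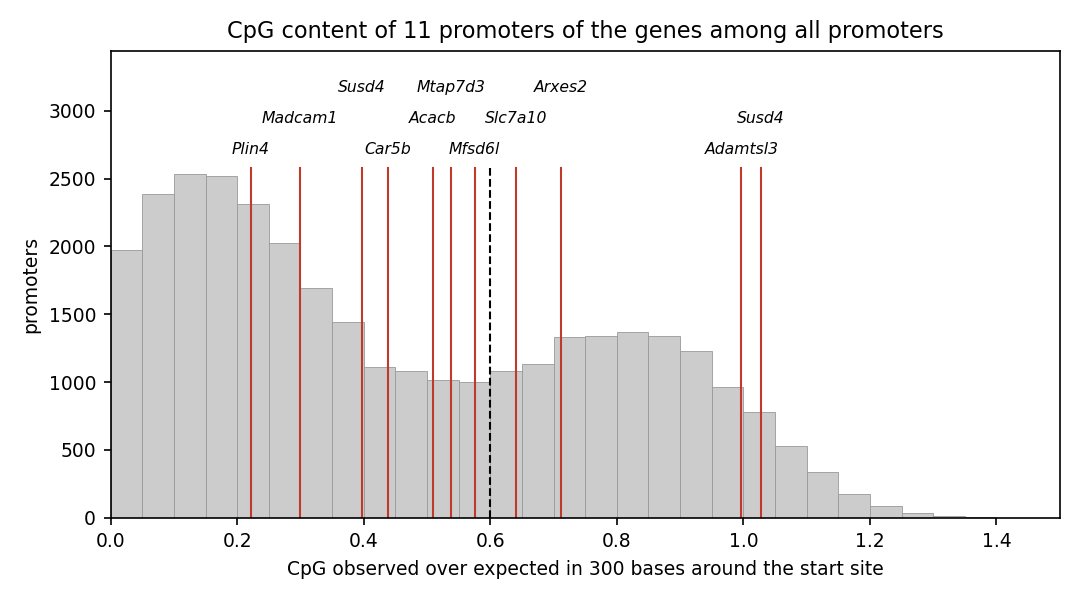
Histogram of the ratio of observed to expected CpG pairs (horizontal axis) over all 32851 RefSeq promoters, as the number of promoters per bin (vertical axis). Red lines mark the 11 windows of the genes and the dashed line a ratio of 0.6, with Plin4 lowest at 0.221 and a Susd4 start highest at 1.03.

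Ppp1r1a encodes an inhibitor of protein phosphatase 1 that becomes active once protein kinase A has phosphorylated it (chromosome 15, 103530279 to 103538003, minus strand). It had 2.29, 4.70 and 3.28 FPKM in Cbx2-/- libraries and 0.218, 0.320 and 0 FPKM in WT libraries. Every Cbx2-/- library was at least 7.14 times the highest WT library. Pde1b, a phosphodiesterase of cyclic nucleotides, lies 227 bases away on the opposite strand and was higher in Cbx2-/- marrow (13.4, 14.96 and 38.5 FPKM against 5.47, 8.71 and 7.88 FPKM in WT). Its difference of 1.34 ± 0.37 (log2, SE) had an adjusted p of 0.0445, and 0.0985 to 0.157 in the fits that left out 1 WT library. With no limit on low values and under 3 other scalings it was 0.058 to 0.0927.

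Car5b encodes a mitochondrial carbonic anhydrase, which turns carbon dioxide into the bicarbonate that carboxylases use (chromosome X, 163976822 to 164027997, minus strand). It was at 1.59, 1.19 and 3.28 FPKM in Cbx2-/- libraries and 0.246, 0.446 and 0.258 FPKM in WT libraries, a ratio of 6.38. As with Acacb, Cbx2-/- replicate 3 was the highest library. Car2, the abundant cytosolic enzyme, was lower in Cbx2-/- marrow at 491 ± 180 FPKM, against 1393 ± 175 FPKM in WT marrow (SD, n = 3 each; limma adjusted p = 0.0112, and 0.0578 and 0.0599 without WT replicates 1 and 2).

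Apoc3 encodes apolipoprotein C-III, which sits on triglyceride-rich lipoproteins and inhibits lipoprotein lipase (chromosome 9, 46232933 to 46235636, minus strand). It was at 1.79, 2.77 and 15.7 FPKM in Cbx2-/- libraries and listed at 0 in all 3 WT libraries, so no ratio is given. Cbx2-/- replicate 3 held most of it, at 6.87 times the mean of the other Cbx2-/- libraries. Its neighbours in the apolipoprotein cluster, Apoa1 and Apoa4, were at most 0.277 and 0.413 FPKM in Cbx2-/- libraries and at most 0.122 and 0.159 FPKM in WT libraries.

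Among the apolipoproteins of another cluster, Apoc1 was at 28.6, 50.3 and 60.2 FPKM in Cbx2-/- libraries and 4.21, 9.11 and 8.69 FPKM in WT libraries, a rise of 2.50 ± 0.34 (log2, SE; adjusted p = 0.0034). Apoe, the main ligand of lipoprotein receptors, rose by 1.31 ± 0.20 (adjusted p = 0.0056). Apoc4 was too low to be tested, at 1.54, 0.503 and 4.01 FPKM in Cbx2-/- libraries and 0, 0.287 and 0 FPKM in WT libraries. Like Apoc3, it was highest in Cbx2-/- replicate 3. Apoc2, the activator of lipoprotein lipase, did not pass, at 9.69 ± 3.31 FPKM in Cbx2-/- marrow and 12.3 ± 7.42 FPKM in WT marrow (SD, n = 3 each).

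Apol6 belongs to the apolipoprotein L family of mostly intracellular proteins (chromosome 15, 77044729 to 77057106, plus strand). It was at 1.19, 1.88 and 1.41 FPKM in Cbx2-/- libraries and 0.286, 0.373 and 0.384 FPKM in WT libraries, a ratio of 4.30. Of the family members, 3 could be tested. Apol8 was at 11.8 ± 4.12 FPKM in Cbx2-/- marrow and 41.6 ± 0.456 FPKM in WT marrow (-1.78 on the log2 scale, adjusted p = 0.0027). Apol11b was at 2.91 ± 2.55 FPKM in Cbx2-/- marrow and 25.4 ± 4.69 FPKM in WT marrow (-2.92, adjusted p = 0.0033). Apol10a, at 0.305, 0.0894 and 0 FPKM in Cbx2-/- libraries and 1.59, 1.01 and 1.33 FPKM in WT libraries, is one of the 33 genes chosen by the mirror rule on these values, so no test is given for it. The other 9 family members in the table did not reach the level for testing. The deposited locus of Apol6 runs 29244 bases past the gene and takes in Mb, the muscle myoglobin gene, on the opposite strand, which was at 0.160, 1.82 and 0 FPKM in Cbx2-/- libraries and at most 0.156 FPKM in WT libraries.

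Madcam1 encodes the vascular addressin, an adhesion molecule of vessel walls that binds an integrin of lymphocytes (chromosome 10, 79664559 to 79668537, plus strand). Its promoter, at chr10:79664309-79664608 (plus strand, GRCm38.p6), is shown because the gene had the largest ratio of highest to lowest Cbx2-/- library (8.95); it holds none of the 5 motifs and so no capitals.
Madcam1: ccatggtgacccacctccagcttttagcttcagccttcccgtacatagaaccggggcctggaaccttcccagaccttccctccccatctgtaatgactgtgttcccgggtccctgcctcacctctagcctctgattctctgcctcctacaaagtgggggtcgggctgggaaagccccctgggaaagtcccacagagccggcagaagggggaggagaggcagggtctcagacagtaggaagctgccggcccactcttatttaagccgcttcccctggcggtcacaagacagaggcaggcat
Madcam1 was at 10.2, 9.26 and 1.14 FPKM in Cbx2-/- libraries and 0.0846, 0 and 0.211 FPKM in WT libraries. Cbx2-/- replicates 1 and 2 were 99.1 times the WT mean and replicate 3 was 11.6 times it. Of 28 tested endothelial genes, 16 rose and 1 fell (against 8.80% and 8.31% over all tested genes), and 10 rose without WT replicate 3. The summed level of the endothelial list was 2378 to 2859 FPKM in Cbx2-/- libraries, highest in replicate 3, and 496 to 666 FPKM in WT libraries. Fabp4 is in both this list and the adipocyte list described below, so the counts and sums of these lists are not separate. The part of endothelial transcripts in the Madcam1 values was not tested. The integrin subunit Itga4 fell by 0.52 ± 0.15 (log2, SE) with an adjusted p of 0.0479, a call that only the fit without Cbx2-/- replicate 3 kept, as the other fits that left out 1 library gave 0.0901 to 0.165. With no limit on low values and under 3 other scalings it was 0.0539 to 0.114. Itgb7, its partner in the integrin that binds Madcam1, did not pass, at 20.9 ± 1.78 FPKM in Cbx2-/- marrow and 21.6 ± 3.30 FPKM in WT marrow (adjusted p = 0.902). Vcam1, another vessel ligand of Itga4, did not pass either, at 162 ± 27.0 FPKM in Cbx2-/- marrow and 93.0 ± 29.2 FPKM in WT marrow (adjusted p = 0.0615).

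Pkp2 encodes plakophilin 2, which links desmosomes to intermediate filaments (chromosome 16, 16213318 to 16272712, plus strand). It had 1.61, 1.01 and 1.97 FPKM in Cbx2-/- libraries and 0.306, 0.202 and 0.255 FPKM in WT libraries, a ratio of 6.03. Of 3 desmosome relatives tested with limma (Pkp3, Pkp4 and Jup) 0 passed, and over all tested genes 8.80% rose and 8.31% fell. Pkp4 and Jup were higher at an unadjusted p under 0.05 (adjusted p = 0.0569 and 0.0634), and Pkp3 had a lower mean (adjusted p = 0.23). Dsp, Dsg2, Dsc2 and Pkp1 were under 0.3 FPKM in every library. Adamtsl3 encodes a secreted matrix protein related to the ADAMTS proteases (chromosome 7, 82335694 to 82614450, plus strand). It had 1.12, 1.25 and 1.03 FPKM in Cbx2-/- libraries and 0.292, 0.203 and 0.258 FPKM in WT libraries, with little spread in either genotype. Its relative Adamtsl4 reached the limit of 1 FPKM for testing in Cbx2-/- libraries alone, with 2.77 ± 1.39 FPKM in Cbx2-/- marrow and 0.735 ± 0.150 FPKM in WT marrow (SD, n = 3 each). Its limma adjusted p was 0.0374, but 0.0745 with no limit on low values, 0.0536 with a common sum per library, and 0.0956 to 0.126 without Cbx2-/- replicate 1 or any 1 of the WT libraries.

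Susd4 encodes a membrane protein with sushi domains that restrains complement (chromosome 1, 182763860 to 182896591, plus strand). It had 2.29, 2.01 and 2.18 FPKM in Cbx2-/- libraries and 0.202, 0.0572 and 0.214 FPKM in WT libraries. Susd4 had the narrowest range of all 15 genes among the Cbx2-/- libraries, with a highest value 1.14 times the lowest, and a ratio of means of 13.7. Of 4 Susd genes tested with limma 0 passed, also at an unadjusted p under 0.05. Over all tested genes 8.80% rose and 8.31% fell.

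Mfsd6l belongs to the major facilitator family of membrane carriers (chromosome 11, 68556186 to 68558245, plus strand). It was at 1.67, 1.43 and 2.27 FPKM in Cbx2-/- libraries and 0.214, 0.121 and 0.424 FPKM in WT libraries, a ratio of 7.06. Mfsd6 rose by 0.63 ± 0.16 (adjusted p = 0.0325), a call lost at 0.0656 to 0.117 without Cbx2-/- replicate 1 or any 1 of the WT libraries, and at 0.0531 to 0.0729 with no limit on low values or under 2 other scalings. Mtap7d3, now named Map7d3, encodes a protein that binds microtubules (chromosome X, 56797858 to 56822326, minus strand). It had the lowest ratio, 3.38, from 1.12, 1.09 and 1.42 FPKM in Cbx2-/- libraries and 0.356, 0.426 and 0.292 FPKM in WT libraries. Neither tested relative of it, Map7 or Map7d1, passed in limma (adjusted p = 0.262 and 0.238).

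The Cbx2-/- libraries ranked the 15 genes differently. Replicate 3 was the highest Cbx2-/- library for 7 genes, replicate 2 for 6 and replicate 1 for 2. Replicate 3 was between the others for 5 genes and below both for 3. Across the 15 genes, Pearson's r of log2(FPKM + 1) was 0.85 between Cbx2-/- replicates 1 and 2, 0.021 between replicates 1 and 3 and 0.18 between replicates 2 and 3, as a description over genes that share libraries. Over all genes these values were 0.987, 0.956 and 0.946 in the same order. The 15 genes were chosen by their levels and span a far narrower range than all genes, so their r cannot be compared with these values. The ratio of replicate 3 to the mean of the other Cbx2-/- libraries ran from 0.117 for Madcam1 to 6.87 for Apoc3. Against the WT mean, the 14 genes with a ratio were 3.797 to 30.5 times as high in replicate 3 (median 8.67) and 2.68 to 99.1 times as high in replicates 1 and 2 (median 6.72).

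**Figure D3:**
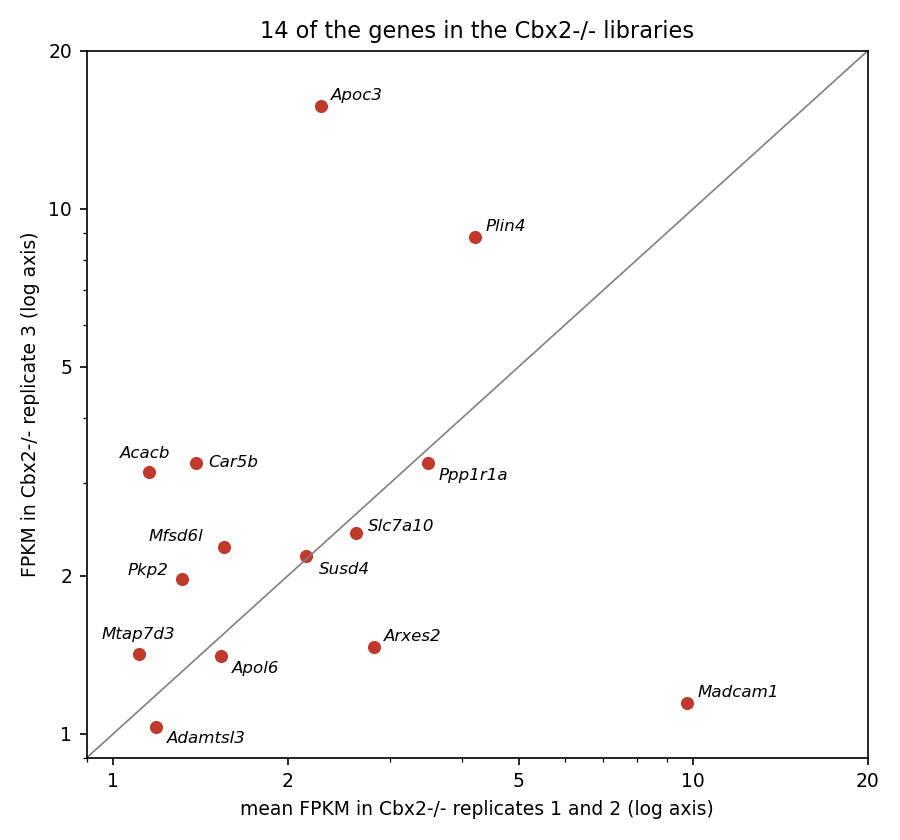
FPKM of 14 of the genes in Cbx2-/- replicate 3 (vertical axis) against their mean in Cbx2-/- replicates 1 and 2 (horizontal axis), both log axes, with the line of equal values. Apoc3, Plin4, Acacb and Car5b lie well above the line, Madcam1 and Arxes2 well below it, and Susd4, Slc7a10 and Ppp1r1a close to it.

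The demand that all 3 Cbx2-/- libraries reach 1 FPKM removed most candidates. Of 7282 genes under 0.5 FPKM in every WT library, 176 reached 1 FPKM in at least 1 Cbx2-/- library. Of these, 77 did so in replicate 3 only, 26 in replicate 2 only, 12 in replicate 1 only, and 28 in replicates 1 and 2 only. A list of 58 skeletal muscle genes held 19 of the 176, of which 10 reached it in replicates 1 and 2 only, 7 in replicate 2 only and 2 in replicate 1 only. None of the 15 genes is in that list, whose summed level was 606, 704 and 50.8 FPKM in Cbx2-/- libraries and 54.4 to 72.6 FPKM in WT libraries. Just outside the rule were Slc22a14, with 0.987 FPKM in Cbx2-/- replicate 3 and 1.77 and 2.75 FPKM in the others, and Atp8b1, with 0.951 FPKM in replicate 1. Igf2bp2 and Slc7a2 missed it with 0.513 FPKM each in WT replicate 3. Just inside were Pkp2 and Adamtsl3 on the Cbx2-/- side, and Acacb and Arxes2 on the WT side.

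**Figure D4:**
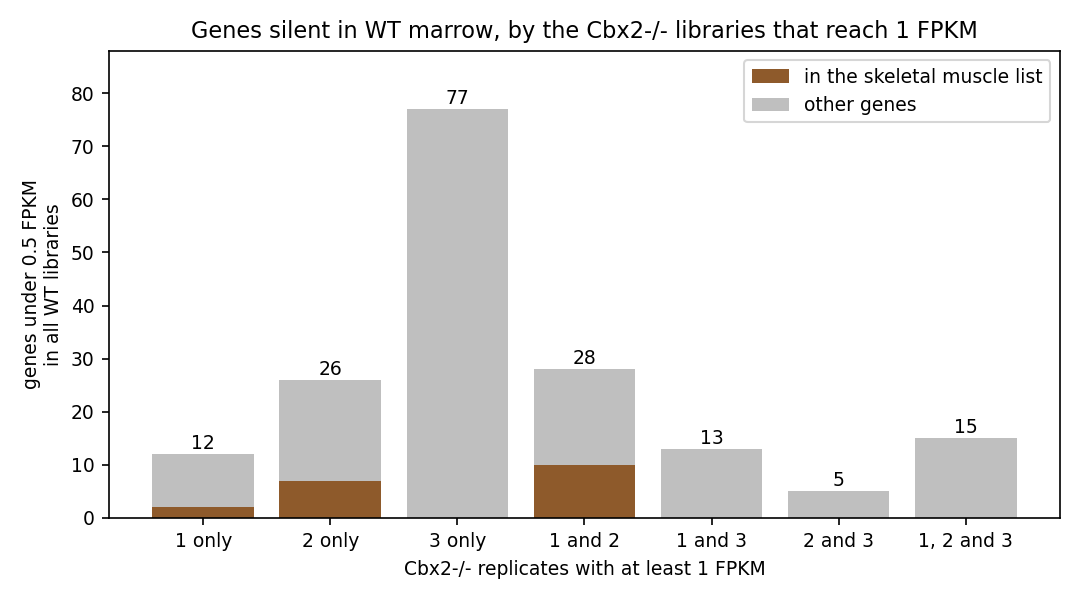
Number of genes under 0.5 FPKM in all WT libraries (vertical axis) that reached 1 FPKM in each combination of Cbx2-/- libraries (horizontal axis), with genes of the skeletal muscle list in brown. The last bar is the 15 genes described here, and the tallest bar is the 77 genes of replicate 3 alone.

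Over all genes, 12006 had 1 FPKM or more in at least 3 of the 6 libraries and were tested with limma. In Cbx2-/- marrow 1057 were higher (8.80%) and 998 lower (8.31%) at an adjusted p under 0.05, with a median difference of 0.016 (log2). Leaving out 1 library moved both counts by more than 1.5 times except for Cbx2-/- replicate 2, to between 367 and 2069 higher and between 475 and 1719 lower. Of 28 gene lists (cell types, pathways, protein complexes), the adipocyte and hepatocyte lists hold 3 of the 15 genes and no list holds the other 12. Plin4 and Slc7a10 are in the adipocyte list. Of its 24 other tested genes 15 rose and 0 fell (17 and 0 at an unadjusted p under 0.05), with a median difference of 1.10. Adig, which encodes adipogenin, a small membrane protein of fat cells, was at 15.7 ± 3.85 FPKM in Cbx2-/- marrow and 0.503 ± 0.252 FPKM in WT marrow (adjusted p = 1.7e-04). Adig reached the limit of 1 FPKM for testing in Cbx2-/- libraries alone (limma adjusted p = 0.00197 with no limit on low values). Pck1, of glycerol and glucose synthesis, was at 10.1 ± 0.101 FPKM in Cbx2-/- marrow and 0.603 ± 0.461 FPKM in WT marrow (adjusted p = 3.4e-04). These genes cleared the rule's Cbx2-/- limit but had more than 0.5 FPKM in some WT library.

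Cidec and Cfd, a lipid droplet protein and a complement factor secreted by fat cells, rose by 3.51 and 3.40 (log2; adjusted p = 3.4e-04 and 4.6e-04). Plin1, the coat protein next to Plin4 in the family, was at 8.09, 21.1 and 6.89 FPKM in Cbx2-/- libraries and 0.888, 1.77 and 0.606 FPKM in WT libraries (adjusted p = 0.0055). Unlike Plin4, Plin1 was highest in Cbx2-/- replicate 2. Plin5, 1798 bases from Plin4 on the same strand, was too low to be tested, with 1.29, 0.895 and 1.27 FPKM in Cbx2-/- libraries and 0.299, 0.340 and 0.253 FPKM in WT libraries. Plin2 and Plin3, the perilipins found in most cells, did not pass (adjusted p = 0.0878 and 0.0517).

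Adipoq, the fat cell hormone adiponectin, did not pass, with 67.3 ± 23.3 FPKM in Cbx2-/- marrow and 49.6 ± 12.7 FPKM in WT marrow. Car3, a cytosolic carbonic anhydrase abundant in fat and muscle, did not pass either, with 45.9, 277 and 27.7 FPKM in Cbx2-/- libraries and 120, 105 and 57.3 FPKM in WT libraries; without Cbx2-/- replicate 2 it was lower by limma, with a difference of -1.30 and an adjusted p of 0.0447. The summed level of the list without Plin4 and Slc7a10 was 2635 to 3339 FPKM in Cbx2-/- libraries and 604 to 819 FPKM in WT libraries, and Lep, a hormone of fat cells, was listed at 0 in all WT libraries and at 0, 0.139 and 0 FPKM in Cbx2-/- libraries. The part of fat cell number in the values of Plin4 and Slc7a10 was not tested.

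Apoc3 is in the hepatocyte list, of which 3 other genes could be tested. Hp, the haptoglobin that neutrophil precursors also make, was at 866 ± 107 FPKM in Cbx2-/- marrow and 368 ± 18.97 FPKM in WT marrow (adjusted p = 0.0063). Rbp4, a retinol carrier of liver and fat, was at 4.28, 15.9 and 7.18 FPKM in Cbx2-/- libraries and 0.932, 2.24 and 1.45 FPKM in WT libraries (adjusted p = 0.0178, and 0.0751 and 0.0721 without WT replicates 1 and 3). Apoa2 did not pass, at 0.935 ± 0.0977 FPKM in Cbx2-/- marrow and 1.19 ± 0.421 FPKM in WT marrow. The defining liver genes Apob and Ttr were listed at 0 in every library, Alb at 0.0799, 0 and 0 FPKM in Cbx2-/- libraries and 0 in WT libraries. Fga, a fibrinogen chain, was at 0, 0 and 1.70 FPKM in Cbx2-/- libraries and 0 in WT libraries, and Cyp2e1, an enzyme of drug metabolism, was at 0.282, 0.228 and 1.16 FPKM in Cbx2-/- libraries and 0.336, 0.315 and 0.442 FPKM in WT libraries. Both are among the 77 genes under 0.5 FPKM in every WT library that reached 1 FPKM in Cbx2-/- replicate 3 only. Their highest library was fixed by that choice, and it is also the library with most Apoc3. The part of liver transcripts in the Apoc3 value was not tested.

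Counting the relatives of 14 of the genes, which were chosen once the genes were known, 80 were in the table and 44 were tested. Of these 6 rose (13.6%) and 5 fell (11.4%), and 33 did not pass, with a median difference of 0.12 (log2). Over all tested genes 8.80% rose and 8.31% fell, and 1 of the 5 relatives that fell, Apol10a, was itself chosen by the mirror rule. Of the 6 that rose, Adamtsl4 reached the limit of 1 FPKM for testing in Cbx2-/- libraries alone, as did Slc7a2. The shares among the relatives are therefore a description only. Slc7a2, a carrier of cationic amino acids just outside the rule, rose by 0.82 ± 0.17 (adjusted p = 0.0145, and 0.019 with no limit on low values). It reached the limit of 1 FPKM in Cbx2-/- libraries alone, and the call was lost at 0.0514 to 0.0657 without Cbx2-/- replicate 1 or any 1 of the WT libraries. Acaca, the cytosolic relative of Acacb that makes fatty acids, did not pass, at 3.87 ± 0.290 FPKM in Cbx2-/- marrow and 2.83 ± 0.582 FPKM in WT marrow (adjusted p = 0.151).

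**Figure D5:**
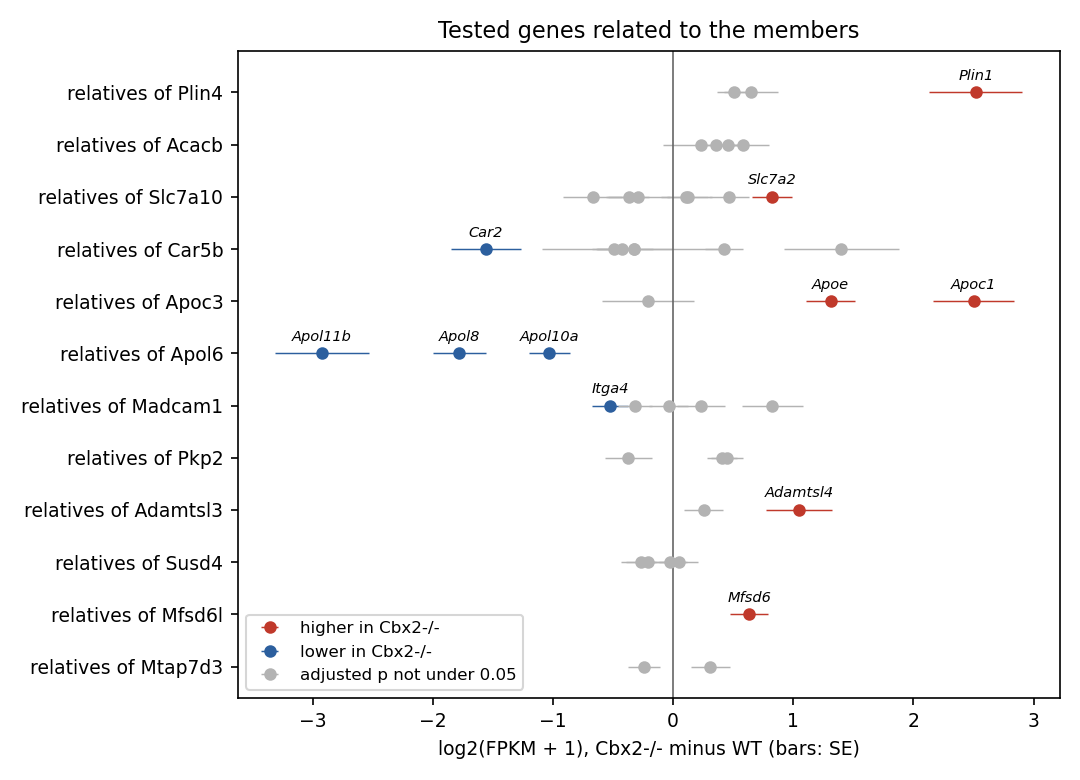
Difference between Cbx2-/- and WT marrow (horizontal axis, log2(FPKM + 1), with SE bars) of the 44 tested relatives, grouped by the gene they are related to (vertical axis). The 6 genes that rose are red, the 5 that fell are blue and those that did not pass are grey. The 3 relatives of Apol6 are all blue, and Apol10a among them was chosen by the mirror rule on these values.

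The 15 genes lie on 10 chromosomes. Of the 30 nearest protein-coding genes, 1 on each side, 15 were tested, and 3 rose, 0 fell and 12 did not pass (4 higher and 0 lower at an unadjusted p under 0.05). Of all tested genes 8.80% rose. The risen neighbours were Pde1b, named above, Cebpa and Pik3r6. Cebpa, a transcription factor of both neutrophil and fat cell differentiation, lies 64457 bases from Slc7a10. It was at 36.0, 44.8 and 45.9 FPKM in Cbx2-/- libraries and 20.6, 24.1 and 21.7 FPKM in WT libraries, a rise of 0.90 ± 0.16 (log2, SE; adjusted p = 0.0084, and 0.0506 without WT replicate 1). Pik3r6, a regulator of a leukocyte phosphoinositide kinase, lies 3488 bases from Mfsd6l and rose by 0.82 ± 0.22 (adjusted p = 0.0397), a call lost at 0.053 to 0.142 without Cbx2-/- replicate 1 or any 1 of the WT libraries, and at 0.0522 to 0.0821 with no limit on low values or under 3 other scalings.

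The X chromosome carries 3 of the 15 genes (Arxes2, Car5b and Mtap7d3), or 20% of them, and 3.67% of the 19777 genes; none of the 33 mirror genes lies there. All 3 had a middle value in Cbx2-/- replicate 1, the Cbx2-/- library with Y-linked transcripts.

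No Hox gene and no gene in the list of developmental transcription factors is among the 15. The rule chose 0.0758% of all genes whose names it kept, so an absence from lists of this size says little. Of the 39 Hox genes, 22 were under 0.5 FPKM in every WT library, and 0 of these reached 1 FPKM in any Cbx2-/- library, where the highest value was 0.937 FPKM. Of all 7282 genes under 0.5 FPKM in every WT library, 176 reached 1 FPKM in some Cbx2-/- library. In 4 of the 22 Hox genes, every Cbx2-/- library was above every WT library, and the share of all such genes was not counted. The Hox genes and other regulators named here were picked with their values known. Hoxb9 had 0.694, 0.668 and 0.707 FPKM in Cbx2-/- libraries and 0.0648, 0.253 and 0.239 FPKM in WT libraries. With the limit on low values 6 Hox genes were tested with limma, and 0 rose (1 at an unadjusted p under 0.05, and 1 rose without Cbx2-/- replicate 3). Over all tested genes 8.80% rose and 8.31% fell. Hoxb2 fell, with 0.805, 0.890 and 0.991 FPKM in Cbx2-/- libraries and 2.44, 1.82 and 1.55 FPKM in WT libraries (adjusted p = 0.0315), a call that was lost in each fit without 1 library except the fit without Cbx2-/- replicate 3. It reached the limit of 1 FPKM for testing in WT libraries alone. With no such limit Hoxb9, Hoxb6 and Hoxd9 passed upward (adjusted p = 0.0127, 0.0159 and 0.0441), at levels under 0.9 FPKM, and 1 Hox gene passed downward. In that fit 882 genes of all kinds were higher and 910 lower. The numbers tested in it are not given here, so the Hox count has no share of all genes beside it.

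Of 135 developmental transcription factors, 111 were under 0.5 FPKM in every WT library. Against 176 of 7282 genes of all kinds, 2 of these reached 1 FPKM in some Cbx2-/- library. They were Pax8, at 0.818, 1.98 and 1.01 FPKM in Cbx2-/- libraries and 0.406, 0.372 and 0.200 FPKM in WT libraries, and Twist2, at 0.169, 0 and 1.41 FPKM in Cbx2-/- libraries and 0.496, 0.228 and 0.159 FPKM in WT libraries. Pax8 was higher in every Cbx2-/- library than in any WT library, and Twist2 was not. Among 16 genes of this list tested with limma 0 rose (2 at an unadjusted p under 0.05; 1 rose without Cbx2-/- replicate 2) and 4 fell (9 at an unadjusted p under 0.05), namely Twist1, Dlx3, Tbx2 and Dlx6. The number that fell was 8 without Cbx2-/- replicate 3 and 2 without WT replicate 2 or 3. Over all tested genes 8.80% rose and 8.31% fell. Of the germ line list, 25 of 28 genes were under 0.5 FPKM in every WT library. Beside the 176 of 7282 over all genes, 1 of the 25 reached 1 FPKM in a Cbx2-/- library. This was Dpep3, at 0.911, 0.0688 and 4.44 FPKM in Cbx2-/- libraries and listed at 0 in all WT libraries. Among 23 tested subunits of Polycomb repressive complex 1, Bmi1 rose by 0.56 and Cbx6 fell by 1.26 (log2; adjusted p = 0.0195 and 0.00153). Of 12 in Polycomb repressive complex 2, Ezh2 fell by 0.95 (adjusted p = 0.0155) and 1 rose, E130012A19Rik, by 0.57 (adjusted p = 0.0306). The fits that left out 1 library are not given for these Polycomb genes, so how far their calls depend on single libraries is not known.

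The mirror rule found 33 genes and the rule that chose the 15 found fewer, but without Cbx2-/- replicates 1 and 2 the order turned, with 70 and 110 genes. Its 33 genes include Rag1 and Rag2, the recombinase of lymphocyte receptor genes, with means of 0.122 and 0.0441 FPKM in Cbx2-/- marrow and 11.6 and 3.84 FPKM in WT marrow. Bglap3, an osteocalcin-related gene, had a mean of 0.118 FPKM in Cbx2-/- marrow and 3.53 FPKM in WT marrow. The mirror genes named here were chosen after their values were seen.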

How the data were processed

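The authors deposited 1 table of FPKM values per gene for 6 libraries, in the format of Cufflinks tracking files per the file headers. Libraries were stranded, poly(A)-based and read as 50-base single-end reads, per the labels' protocols. The submitters' processing notes name Cufflinks 2.2.1, TopHat2 2.1.0, FastQC 0.11.5 and the mm10 build, with no roles, settings or annotation. FPKM is relative, so a value falls when other transcripts take more of the reads.

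The genes were chosen by fixed thresholds (under 0.5 FPKM in all WT, at least 1 FPKM in all Cbx2-/- libraries). Members, gene lists, relatives and tests were chosen with earlier results of these data known, and the relatives once the members were known. Genes at 1 FPKM or more in at least 3 libraries were tested across the whole table with limma 3.58.1 in R 4.3.3 on log2(FPKM + 1), with a mean-variance trend and no covariate, two-sided, with Benjamini-Hochberg adjustment over 12006 genes (threshold 0.05). The pseudocount of 1 makes differences of low genes smaller. The fit was tested on simulated data. The values and relatives of 1 of the 15 genes are not reported here; it is included in counts and ranges over the 15. Besides the 15 genes and Cbx2, the text names by rule the genes next to each threshold, neighbouring paralogs and, in each list with a member, up to 4 tested genes with the lowest adjusted p and up to 2 of the highest mean that did not pass; relatives and neighbours are named by their tests. Positions are from GENCODE vM21 (GRCm38) and promoters from RefSeq (GRCm38.p6). Figures were drawn with matplotlib 3.10.9.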

Additional observations from a re-analysis of the deposited data

How the results depend on the processing

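How many genes met the rule depended on its thresholds. There were 4 with WT values under 0.3 FPKM (Adamtsl3, Apoc3, Madcam1 and Susd4), 89 under 1 FPKM, 5 at 2 FPKM or more in Cbx2-/- libraries (among them Plin4, Ppp1r1a, Slc7a10 and Susd4) and 82 at 0.5 FPKM or more; the mirror rule gave 13, 108, 10 and 94. Both rescalings (a common sum per library and size factors) left 15 genes, with Slc22a14 in place of Pkp2. Leaving out a library drops a condition, so counts can only grow. It gave 18 to 43 genes (43 without Cbx2-/- replicate 3, 28 without Cbx2-/- replicate 2, 23 without WT replicate 2) and 35 to 57 mirror genes (57 without Cbx2-/- replicate 3, 50 without Cbx2-/- replicate 2). Without Cbx2-/- replicates 1 and 2, which was chosen for these rules after seeing the data, there were 110 and 70.

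In the limma test, leaving out 1 library gave 367 to 2069 higher and 475 to 1719 lower genes, with both highest counts without Cbx2-/- replicate 3. With Cbx2-/- replicate 3 as the lone Cbx2-/- library, assumed to vary like WT, 2047 were higher and 2714 lower. Deviations of same-numbered libraries of the genotypes had an r of 0.19, -0.18 and -0.10, and those of differently numbered libraries -0.26 to 0.27. Values this few cannot settle whether the numbers pair animals, and replicate 1 of each genotype had Y-linked transcripts. With the replicate number as a block 634 genes were higher and 734 lower. Adipocyte genes higher besides Plin4 and Slc7a10 numbered 11 to 18 over all settings. The sign of the 15 genes' differences is fixed by the rule; of 150 recomputed differences, 27 moved by more than 1 SD, all under another pseudocount. Differences of 30 named tested genes were also followed over the settings, and not those of every gene named above. Among these 30 the one that turned round was Car3 (-1.30 to 0.33 with 1 library left out, above 0 without Cbx2-/- replicate 3). The cause was not tested.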

Other observations

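Among genes under 0.5 FPKM in every WT library, those that reached 1 FPKM in Cbx2-/- replicate 3 alone included Cidea, a lipid droplet protein typical of brown fat cells, at 0.0781, 0.0886 and 5.14 FPKM in Cbx2-/- libraries and 0 in WT libraries. Of 14 brown adipocyte genes 4 were tested, and 1 rose and 0 fell, against 8.80% and 8.31% over all tested genes. These genes were chosen after their values were seen.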
